A study of Mus musculus with 4 samples.

Results

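The thioredoxin, peroxiredoxin and sulfiredoxin genes Txn1, Txnrd1, Srxn1, Prdx1 and Prdx6 were taken by gene name from a table of chromatin immunoprecipitation followed by sequencing (ChIP-seq) against Nrf2 in mouse esophagus. They are 5 of the 1940 genes with a called interval (a stretch of enriched signal) in or near them, and they lay at 5 separate loci of 1460. A locus is a set of intervals, merged between libraries, that is listed under the same genes, so that neighbouring genes which share an interval count once. The groups were wild-type, Nrf2KO (without Nrf2, the antibody's target) and Keap1KO (without Keap1), all labelled C57BL/6 and esophagus, with 1 ChIP library each and a pooled input that was not analysed here. The ages of the mice, the number behind a library and whether a knockout was limited to some cells were not stated in the labels. With 1 library per genotype no difference below has a replicate check or a test.

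Nrf2, the product of Nfe2l2, is a transcription factor that pairs with small Maf proteins on antioxidant response elements, and Keap1 holds it at a low level by targeting it for degradation. Peroxiredoxins reduce peroxides with a reactive cysteine. Thioredoxin re-reduces that cysteine, thioredoxin reductase recharges thioredoxin with electrons from NADPH, and sulfiredoxin rescues peroxiredoxins whose cysteine has been overoxidised. Genes of this cycle are known targets of Nrf2 in many tissues, and mice without Keap1 are known for a thickened, keratinised esophagus. In whole tissue, a change in the make-up of cells and a change in binding per cell cannot be told apart, and peak heights say nothing of the expression of tissue markers.

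The unit of all values is the deposited peak height, whose scale is not stated and whose sequencing depth is unknown. The median over the 1460 loci was 4.33 in Nrf2KO, 5 in wild-type and 18 in Keap1KO. Nearly all loci (99.2%) are in the table because of a call in Keap1KO, 3.77% were called in wild-type, and 0 intervals were called in Nrf2KO. The calls raise the Keap1KO heights by selection, and ratios between libraries also move with depth. Ranks of heights within a library do not depend on depth and are given too. Ranks of ratios compare libraries and, as 1 is added to each height, can shift with their relative depth.

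Of the 5 genes, 4 stood among the 15 tallest loci of the Keap1KO library, an unplanned cut that equals the rank of Txnrd1. Txn1 and Srxn1 were ranks 1 and 2, Prdx1 rank 6 and Txnrd1 rank 15, whereas Prdx6 was rank 167. Counted over the 1940 gene rows, where genes sharing an interval each take a rank, Prdx1 was rank 10, Txnrd1 rank 28 and Prdx6 rank 256, and 3 of the 5 were among the 15 tallest. All 5 heights were above the Keap1KO median of 18. In wild-type the heights ran from 6 at Prdx6 to 25 at Txn1, and in Nrf2KO from 3 at Prdx6 to 10 at Srxn1. The order of the genes was thus not the same in the 3 libraries: Txn1 led in wild-type and Keap1KO, and Srxn1 in Nrf2KO.

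**Figure D1:**
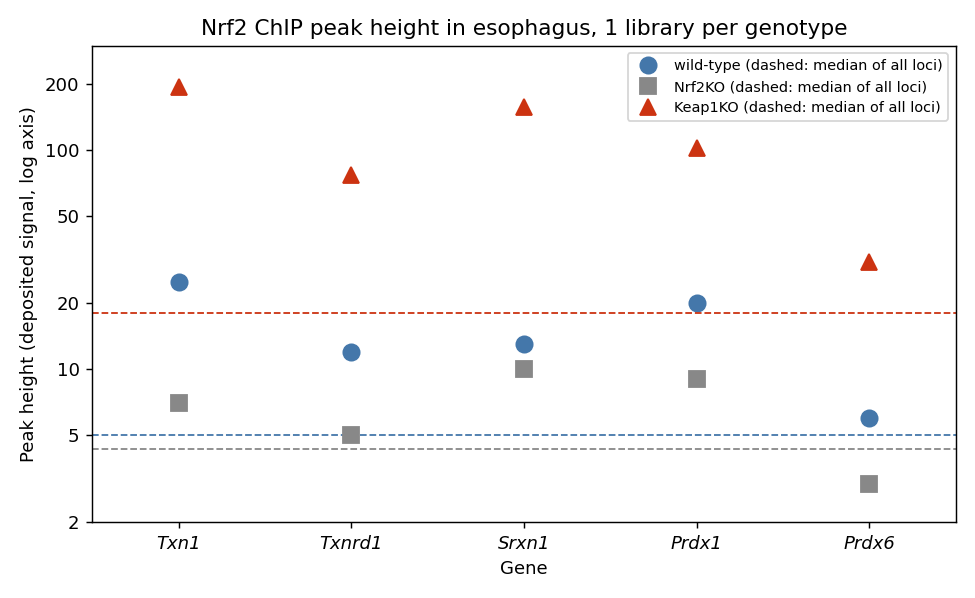
Peak height (deposited signal, log axis) of the 5 genes in the wild-type (circles), Nrf2KO (squares) and Keap1KO (triangles) libraries, 1 library each, with dashed lines at the median of all 1460 loci in the same colour. At each gene Keap1KO was highest and Nrf2KO lowest; the Srxn1 circle and square lie closest together, at 13 and 10.

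Txn1 (GeneID 22166, chromosome 4, 57943373 to 57956411, minus strand) encodes cytosolic thioredoxin, the electron donor of the cycle. Its locus had a height of 7 in Nrf2KO, 25 in wild-type and 194 in Keap1KO. Keap1KO was the tallest height of the table. Wild-type was second only to a locus with 32, listed under the closest gene Gm12758, under 4931406P16Rik and under the glycolytic enzyme gene Gpi1. The Nrf2KO height was of ordinary size, with 72.7% of all loci lower and, among the 454 loci within 1 kb of a gene start, 45.2% lower. Keap1KO was thus 24.4-fold above Nrf2KO on the scale of height + 1, the eighth largest such ratio (rank 8 of 1460). An interval was called in wild-type 341 bp upstream of the gene start (position 57956752) and in Keap1KO 421 bp upstream (position 57956832), and both were merged into 1 region. No other gene was listed for them, and the nearest other interval lay 324 kb away, near Musk.

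Txnrd1 (GeneID 50493, chromosome 10, 82833951 to 82897724, plus strand) encodes cytosolic thioredoxin reductase, the selenoenzyme that passes electrons from NADPH to thioredoxin. Its mean heights were 5 in Nrf2KO, 12 in wild-type and 77 in Keap1KO, which made Keap1KO 6-fold above wild-type (log2 ratio 2.58) and 13-fold above Nrf2KO. It was the only one of the 5 genes with 2 regions, so these values are means of a pair. The table also lists the highest height of a gene, which was 139 in Keap1KO. With a mean of 77 over 2 regions, the other region had 15, below the median of 18. The listed mean therefore joins a tall and a low region. Ranked by the highest height listed, Txnrd1 was rank 4, behind Txn1, Srxn1 and the locus of the glutathione transferases Gstp1 and Gstp2, while Prdx1 went from rank 6 to 10 and Prdx6 from 167 to 213. Wild-type heights of 24 and Nrf2KO heights of 10 in sum over both regions cannot be split.

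The Txnrd1 intervals were listed deep in the gene, 24321 and 25153 bp from its start, and are shared with Eid3, whose start lies 7522 bp beyond the closer one. RefSeq (GRCm38.p6, the same primary coordinates as mm10) gives Txnrd1 3 starts. The second, at position 82859206, lay 102 bp downstream of the interval at 82859104, which was called at the same position in wild-type and in Keap1KO. The other Keap1KO interval, at 82858272, lay 934 bp upstream of that start. Such a placement was infrequent. Of 533 intervals listed more than 10 kb into a gene, 12 (2.25%) were within 250 bp of a RefSeq start of the same gene. Among the 12 were the 2 coinciding Txnrd1 intervals. Within 1 kb there were 23 (4.32%). The limits of 10 kb and 250 bp were not planned beforehand. Which of the 2 regions holds the height of 139 is not stated in the table.

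The 250 bases before the second Txnrd1 start hold the interval called in both libraries and are shown for that reason (RefSeq, GRCm38.p6, chr10:82858956-82859205, plus strand). Capitals mark a match to the core of the antioxidant response element, TGACNNNGC, on the opposite strand, where it reads TGACAAAGC. Its centre lay 88 bp before the start and 14 bp from the interval.
Txnrd1, second start: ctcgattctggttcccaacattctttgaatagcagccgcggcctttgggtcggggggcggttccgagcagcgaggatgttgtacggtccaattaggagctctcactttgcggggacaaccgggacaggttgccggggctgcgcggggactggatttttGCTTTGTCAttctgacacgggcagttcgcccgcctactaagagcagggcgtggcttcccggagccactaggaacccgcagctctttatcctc

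Srxn1 (GeneID 76650, chromosome 2, 152105524 to 152111376, plus strand) encodes sulfiredoxin, which returns overoxidised peroxiredoxins to the cycle. Its heights were 10 in Nrf2KO, 13 in wild-type and 158 in Keap1KO. The Keap1KO over wild-type ratio was the largest of the 5 genes (log2 3.51, rank 20 of 1460), and the wild-type over Nrf2KO ratio was the smallest (log2 0.35, 1.27-fold, rank 608). The Nrf2KO height was the highest of the 5 genes, with 91.0% of all loci and 78.4% of those within 1 kb of a start lower. No interval was called in wild-type, although 31 loci of at least the same wild-type height were called there and 15, Srxn1 among them, were not. In Keap1KO the interval lay 12 bp into the gene (position 152105536). It is also listed under Scrt2, which ends upstream of it and whose start is 24007 bp away, and the nearest other interval lay 118 kb away, at Csnk2a1.

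The 250 bases before the Srxn1 start end 13 bp short of that interval and are shown with the form TGAGTCAGC in capitals, on the gene's own strand (RefSeq, GRCm38.p6, chr2:152105274-152105523, plus strand). This form is not a case of the core and was searched after the data were examined. Its centre lay 41 bp before the start and 53 bp from the interval. A match to the core, which reads TGACCTAGC on the opposite strand, lay beyond the start, with its centre 32 bp into the gene and 20 bp from the interval.
Srxn1: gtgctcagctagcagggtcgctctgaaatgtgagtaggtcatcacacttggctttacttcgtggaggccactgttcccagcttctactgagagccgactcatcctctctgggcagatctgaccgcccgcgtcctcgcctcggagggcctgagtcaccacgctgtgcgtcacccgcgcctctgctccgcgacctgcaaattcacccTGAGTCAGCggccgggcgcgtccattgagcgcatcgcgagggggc

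Prdx1 (GeneID 18477, chromosome 4, 116685599 to 116700000, plus strand) encodes an abundant cytosolic peroxiredoxin, a main client of thioredoxin. Its heights were 9 in Nrf2KO, 20 in wild-type and 103 in Keap1KO. In wild-type it stood at rank 7, with 2 other loci at the same height, and in Nrf2KO 86.1% of loci were lower. Intervals were called in wild-type 175 bp upstream of the start (position 116685424) and in Keap1KO 191 bp upstream (position 116685408). They are shared with AV051173, a gene on the other strand that begins inside Prdx1 (chromosome 4, 116684962 to 116686022) and has them 598 and 614 bp from its start, so the height cannot be assigned to either gene. The nearest other interval lay 122 kb away.

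Both calls lie in the 250 bases before the Prdx1 start, shown with the core in capitals (RefSeq, GRCm38.p6, chr4:116685349-116685598, plus strand). On the opposite strand the match reads TGACTCAGC, the form in which the 3 free bases of the core are TCA. Its centre lay 129 bp before the start and 46 bp from the closer interval.
Prdx1: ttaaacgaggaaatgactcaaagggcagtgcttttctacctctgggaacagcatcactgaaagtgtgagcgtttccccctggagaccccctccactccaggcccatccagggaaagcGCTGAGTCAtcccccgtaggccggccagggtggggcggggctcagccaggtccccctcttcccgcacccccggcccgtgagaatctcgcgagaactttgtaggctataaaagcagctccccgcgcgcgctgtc

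Prdx6 (GeneID 11758, chromosome 1, 161240112 to 161251166, minus strand) encodes a peroxiredoxin with a single catalytic cysteine that takes its electrons from glutathione rather than thioredoxin. Its heights were the lowest of the 5 genes in each library, at 3 in Nrf2KO, 6 in wild-type and 31 in Keap1KO. The wild-type height was near the middle of the table, with 54.8% of loci lower, and the Nrf2KO height below it, with 22.3% lower, while in Keap1KO 88.0% of loci were lower. Keap1KO was 4.57-fold above wild-type and 8-fold above Nrf2KO. A single interval was called, in Keap1KO only, 2366 bp into the gene (position 161248800), and no other gene was listed for it. The nearest other interval lay 212 kb away, in a group of genes that holds Zbtb37 and Gas5.

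Against wild-type, all 5 genes were at least 2-fold higher in Keap1KO, and so were 88.0% of all loci, so that the count itself does not set them apart. The sizes were in the upper part of the table: the median log2 ratio of the 5 was 2.58, against 1.74 over all loci, and the ratios ran from 2.19 at Prdx6 (rank 368) to 3.51 at Srxn1 (rank 20). Less the median of all loci, the log2 ratios were 1.77 at Srxn1, 1.17 at Txn1, 0.85 at Txnrd1, 0.57 at Prdx1 and 0.46 at Prdx6. Only Srxn1 and Txn1 of the 5 were then at least 2-fold higher, against 8.29% of all loci. In plain differences of height, Keap1KO exceeded wild-type by 169 at Txn1, 145 at Srxn1, 83 at Prdx1, 65 at Txnrd1 and 25 at Prdx6.

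Against Nrf2KO, wild-type was higher at all 5 genes (53.8% of all loci) and at least 2-fold higher at 3 of them, Txn1 (3.25-fold), Txnrd1 (2.17-fold) and Prdx1 (2.1-fold), against 18.8% of all loci and 8.15% of those within 1 kb of a start. These 3 were also the genes with a call in wild-type, and such calls select wild-type heights upwards. The ratios at Txnrd1 and Prdx1 lay close to the 2-fold line, and with a pseudocount of 5, or less the median of all loci, only Txn1 of the 5 passed it. Prdx6 (1.75-fold) and Srxn1 (1.27-fold) did not pass it. The median log2 ratio of the 5 was 1.07, against 0.19 over all loci and 0.00 within 1 kb of a start. By their listed starts, only Txn1, Srxn1 and Prdx1 belong to the loci within 1 kb. Of these 3 genes, 2 were at least 2-fold higher, with a median log2 ratio of 1.07. At Prdx6 the difference was 3 in height, as at Srxn1, on heights of 6 and 3.

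All 5 genes were at least 2-fold higher in Keap1KO than in Nrf2KO, as were 85.3% of all loci, with a median log2 ratio of 3.70 against 1.91. The ratios ran from 3.00 at Prdx6 (rank 192) to 4.61 at Txn1 (rank 8), with Prdx1 at 3.38, Txnrd1 at 3.70 and Srxn1 at 3.85. All comparisons with Keap1KO rest on the same Keap1KO library, and those with Nrf2KO on the same Nrf2KO library. They are not independent of each other.

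**Figure D2:**
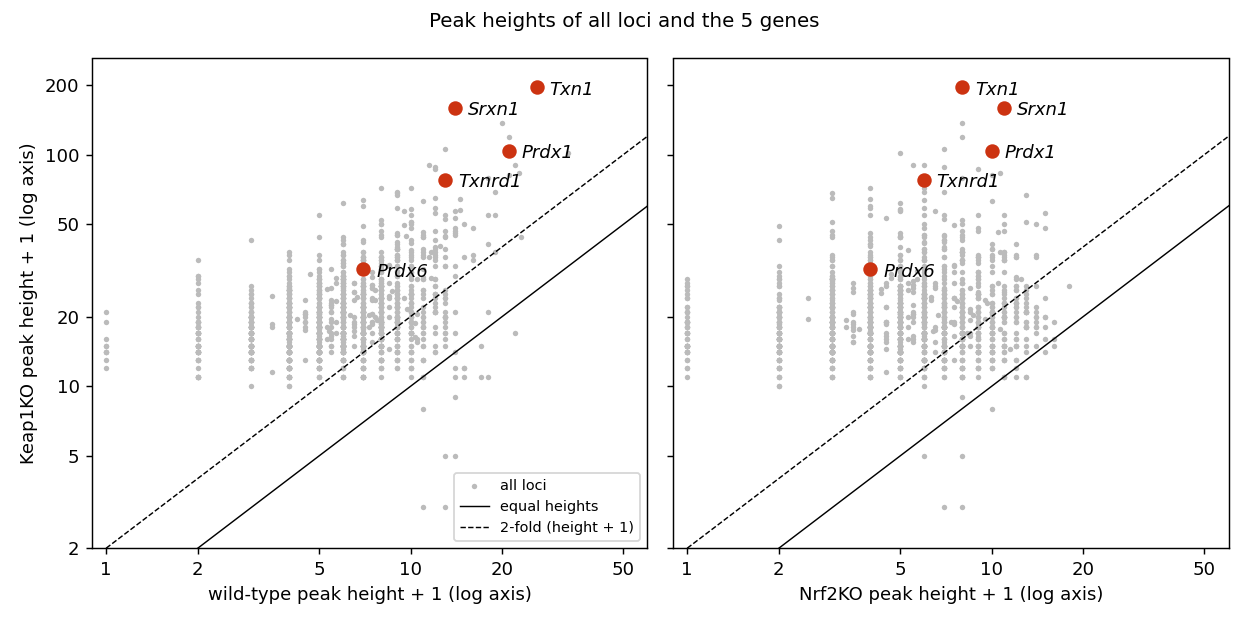
Keap1KO peak height + 1 against wild-type peak height + 1 (left) and Nrf2KO peak height + 1 (right), both log axes, for all 1460 loci (grey) and the 5 genes (red), with lines of equal heights (solid) and 2-fold (dashed). The 5 genes lie above the dashed line in both panels, and Srxn1 lies left of Txn1 in the wild-type panel (13 against 25) but right of it in the Nrf2KO panel (10 against 7).

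The part of the Keap1KO signal above Nrf2KO that was also seen in wild-type was lowest at Srxn1. Wild-type height above Nrf2KO, as a share of Keap1KO height above Nrf2KO, was 9.63% at Txn1, 9.72% at Txnrd1, 11.7% at Prdx1 and 10.7% at Prdx6, and 2.03% at Srxn1. Over the 175 loci with a Keap1KO height of at least 31, that of Prdx6, and at least 10 above Nrf2KO the median share was 9.09% (quartiles 2.01 and 13.84). This measure was chosen after the values were seen, and it depends on the relative depth of all 3 libraries. At Srxn1 and Prdx6 it rests on a wild-type difference of 3.

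By the gene start listed in the table, 3 of the 5 genes, Txn1, Srxn1 and Prdx1, had an interval within 1 kb, against 31.1% of all loci. By the RefSeq starts, used after the data were examined, Txnrd1 did too, which made 4 of the 4 genes with a start there, against 34.1% of the 1173 loci with one. Where both wild-type and Keap1KO had a call, the calls were 80 bp apart at Txn1, 16 at Prdx1 and 0 at Txnrd1, against a median of 56 bp over the 43 regions called in both. Interval positions fell on multiples of 16 bp in 95.5% of cases, so a distance of that size is the grain of the positions. The 5 loci were 44 to 324 kb from the nearest interval of another locus, against a median of 319 kb over all loci (quartiles 118 and 832).

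**Figure D3:**
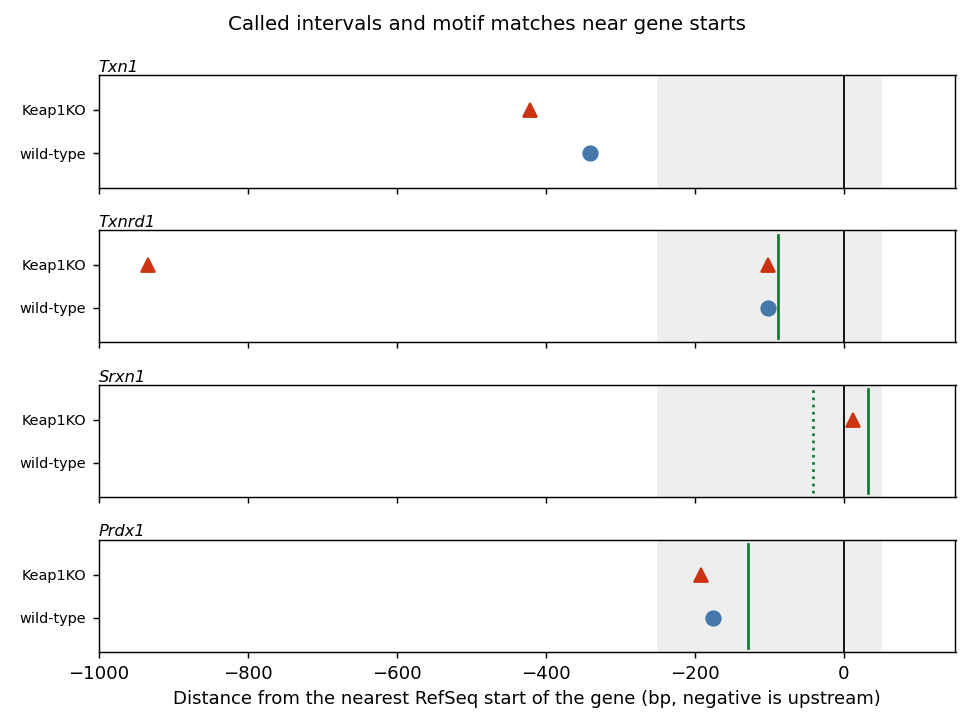
Positions of called intervals in wild-type (circles) and Keap1KO (triangles) in bp from the nearest RefSeq start of Txn1, Txnrd1 (its second start), Srxn1 and Prdx1, with matches to TGACNNNGC (solid green) and TGAGTCAGC (dotted green) in the searched window of 300 bases (grey). The Txn1 calls lie outside the window at 341 and 421 bp upstream, and the matches at Txnrd1, Srxn1 and Prdx1 lie 14, 20 and 46 bp from the nearest call.

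Of the 5 genes, 4 had promoters in the RefSeq table (250 bases before to 50 after a start), and the core TGACNNNGC, searched on both strands, was found in a window of 3 of them, Txnrd1, Srxn1 and Prdx1. In the Txn1 window and in the other 2 Txnrd1 windows it was not found. The Txn1 window ends 91 bp short of the position of the wild-type call, and the Keap1KO call lies farther off. Intervals were placed by a single position without a width, so whether the tallest peak reaches into the window is not known. Of all 32851 promoters 12.4% held the core, and of the 168 that held a called interval 38.7% did. The fixed form TGACTCAGC, which is 1 case of the core and was found at Prdx1, was in 0.454% of all promoters and 7.14% of those with an interval. TGAGTCAGC, found at Srxn1, was in 0.414% and 3.57%. Promoters of the same gene can overlap, and a match is no sign of binding at those letters.

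Most other genes of the system had no row, as was so for most RefSeq protein-coding genes. Those with a row had Keap1KO heights below the median of all loci. Of 44 genes in 5 lists of thioredoxin biology, 10 had a row, and 5 of these are the genes above, whose rows were known when the lists were drawn up. Without them the share was 5 of 39 (12.8%, exact 95% binomial interval 4.3 to 27.4), against 7.67% of RefSeq protein-coding genes. The interval treats genes as independent draws, and the lists were chosen with earlier results known, so no conclusion is drawn from it. Also without them, the thioredoxin system had 1 of 10 and the peroxiredoxins and sestrins 2 of 7. Glutaredoxins and methionine sulfoxide reductases had 1 of 8, thioredoxin clients 1 of 5, and thioredoxin-fold oxidoreductases of the endoplasmic reticulum 0 of 9 (exact upper limit 33.6%). Mitochondrial thioredoxin (Txn2) and its reductase (Txnrd2), the other peroxiredoxins Prdx3, Prdx4 and Prdx5, and the thioredoxin inhibitor Txnip had no row.

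The 5 further genes had Keap1KO heights of 12 to 17, all below the median of 18. Nxn, nucleoredoxin, had 2 in Nrf2KO, 3 in wild-type and 13 in Keap1KO at an interval 112117 bp into the gene. Map3k5, the stress kinase that thioredoxin holds in check, had 4, 5 and 15 in the same order of libraries. Sesn2, a sestrin of the stress response, had 5, 7 and 12 at an interval 5107 bp upstream, with Keap1KO 1.62-fold above wild-type. Of the 5, 4 were at least 2-fold higher in Keap1KO than in wild-type (88.0% of all loci) and 0 were in wild-type than in Nrf2KO (18.8%).

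A pair of these rows is closer to another gene. The Prdx2 interval, with 4 in Nrf2KO, 3 in wild-type and 17 in Keap1KO, lay 10208 bp beyond the start of this gene, whose peroxiredoxin is abundant in red cells, and 1108 bp upstream of Junb, an AP-1 gene that shares it. The interval of Msrb3, a methionine sulfoxide reductase, with 8, 4 and 14, lay past the end of the gene and 11956 bp from the start of 4921513I03Rik. At Prdx2 and Msrb3 wild-type was below Nrf2KO, unlike at the 5 genes. Wild-type was above Nrf2KO at only 53.8% of all loci, so a lower wild-type height was common. The Prdx2 heights, 3 against 4, are low and from 1 library each.

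**Figure D4:**
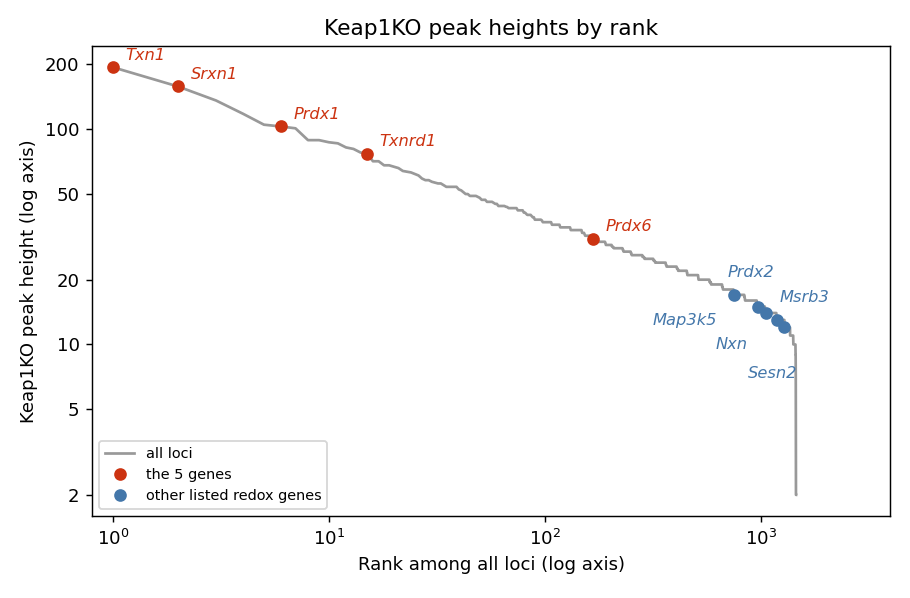
Keap1KO peak height against rank among all 1460 loci (grey line, both axes log), with the 5 genes in red and the 5 other listed redox genes in blue. Txn1, Srxn1, Prdx1 and Txnrd1 lie at ranks 1 to 15, Prdx6 at 167, and the blue genes between 756 and 1290.

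The loci most like each gene were sought by the Euclidean distance of log2 (height + 1) over the 3 libraries, that is over 3 values. Nearest to Txn1 were Sh2d6 (7 in Nrf2KO, 19 in wild-type and 136 in Keap1KO, distance 0.63) and Ftl1, the ferritin light chain (7, 20 and 118, distance 0.78). The same pair was nearest to Srxn1, at 0.72 and 0.85. These distances were larger than those of the other 3 genes, whose nearest loci were at 0.00 to 0.35. For Txnrd1 these were the locus of Gstp1 (4.5, 10.5 and 89, also a mean of 2 regions) and that of Osgin1 (6, 11 and 87). For Prdx1 they were Cbr3, a carbonyl reductase gene (9, 20 and 81), and the locus of Neat1 and Gm9783 (9.67, 21.67 and 82.33). Prdx6 had the same 3 heights as Tbx19 and differed from Fetub by 1 in Keap1KO.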

How the data were processed

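Nrf2 ChIP-seq libraries of wild-type, Nrf2KO and Keap1KO esophagus were analysed, 1 per genotype, and the pooled input was not analysed here. The submitters' processing notes name BWA, MACS2 2.1.0 and mm10; parameters, depth and scaling are not stated there. The deposited table gives signal per gene as an average peak height over its active regions, a highest height and a flag for called intervals, per the file headers.

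Positions were computed from gene start, strand and listed distance. The 1727 intervals were merged to the stated number of regions (1684), and heights of the 1460 loci were obtained from the gene means by least squares (largest residual 0.00186). The solver and the motif search were tested on simulated data. Ratios are log2 of heights with a pseudocount of 1, and at least 2-fold describes size only. Promoters and starts came from RefSeq GRCm38.p6, matched by GeneID, with 4 of 5 genes matched. Named genes are the 5 genes, listed redox genes with a row, genes sharing their intervals and the 2 most alike loci of each. Other genes were named as neighbours or comparators after their values were seen, and so were list genes with no row. The genes, lists and rules were chosen with earlier results of these data known. Python 3.11.15, numpy 2.4.6, pandas 2.3.3, scipy 1.17.1 and matplotlib 3.10.9 were used.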

Additional observations from a re-analysis of the deposited data

How the results depend on the processing

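No paired analysis was possible because no genotype has more than 1 library. Of 180 values under an alternative, 0 changed sign, and 33 moved by over 1.5 times. Counts, shares and ranks cannot change sign. A gene's own ratio stays the same by construction where a setting only changes which loci or rows are compared. Neither total is thus a measure of robustness. Of the 33, 16 were main counts, shares or medians (13 of the 3 comparisons between libraries, 1 of listed genes and 2 of motifs). The cause was not tested except where fewer loci, a larger pseudocount or a subtracted median acts by construction. Less the median of all loci, Keap1KO over wild-type was at least 2-fold higher at 2 of the 5 genes (8.288% of loci) with a median of 0.85, wild-type over Nrf2KO at 1 (11.99%), and Keap1KO over Nrf2KO had a median of 1.79 (16.51% of loci). With a pseudocount of 5, wild-type was at least 2-fold above Nrf2KO at 1 gene (3.973% of loci), and the median of Keap1KO over Nrf2KO was 3.04. Among loci within 1 kb of a start, 3 of the 3 genes left were at least 2-fold higher in Keap1KO than in wild-type (76.21% of loci) and than in Nrf2KO (66.08%), and 2 of 3 in wild-type than in Nrf2KO (8.15%). Of the 10 listed redox genes with a row, 5 had a Keap1KO height of at least 18, and these were Txn1, Txnrd1, Srxn1, Prdx1 and Prdx6. The forms TGACTCAGC and TGAGTCAGC were each found at 1 gene. The RefSeq starts, the highest height per gene, TGAGTCAGC, the nearest gene and the limit of 1 kb were chosen after seeing the data. The cut at the 15 tallest loci and the limits of 10 kb and 250 bp for deep intervals were also not planned. Unknown depth limits all ratios.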
